A study of Mus musculus with 32 samples.

Results

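The comparison set E14 mouse embryonic stem cells kept with the synthetic liver X receptor agonist T0901317 against untreated cells at passage 4. The libraries were taken by name: every library labelled passage 4, which gave 2 of the treated culture (NrESC) and 2 of the untreated one (ESC), so 4 of 32 libraries and 2 of 16 groups. NrESC medium held 10 µM T0901317 on top of the medium of the ESC cells. Both groups shared all else: the wild-type E14 line, gelatin-coated plates, serum, leukemia inhibitory factor (LIF), 3 µM of the GSK3 inhibitor CHIR99021 and 1 µM of the MEK inhibitor PD0325901. The whole study sampled both cultures at passages 0, 2, 4, 6, 8, 10, 12 and 14 by sequencing of polyadenylated RNA. Nothing in the labels tells if both libraries of a group are separate cultures, and the p-values then measure only the spread between these libraries, which may be technical. E14 is 1 line, and each treatment at passage 4 may be 1 culture.

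The liver X receptors Nr1h3 (LXR alpha) and Nr1h2 (LXR beta) are nuclear receptors that bind oxidised sterols and act on DNA as partners of the retinoid X receptors. Their best known targets export cholesterol (Abca1, Abcg1), lower its uptake (Mylip) and switch on fatty acid synthesis through the transcription factor Srebf1. Cholesterol synthesis is driven by Srebf2, which the cell activates when membrane sterol is low. Mouse embryonic stem cells held in LIF with both inhibitors keep a naive pluripotent state, and a small share of them passes at times through a 2-cell-like state that expresses Zscan4 and other genes of the 2-cell embryo.

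The 4 libraries held 25062538 and 35990485 counts in NrESC, and 31597473 and 34546246 counts in ESC. Levels are given as CPM (counts scaled to a common library size) after TMM scaling, fold changes as log2 of NrESC over ESC with their standard error (SE), and adjusted p-values come from edgeR's quasi-likelihood test fitted to all 32 libraries, with Benjamini-Hochberg adjustment over 15036 genes and a threshold of 0.05. Both cultures expressed the defining genes of embryonic stem cells: Pou5f1 had 1527 and 1600 CPM in NrESC, against 1270 and 1262 CPM in ESC, and Nanog 1170 and 1159 CPM in NrESC, against 1653 and 1676 CPM in ESC. Of 12 fibroblast markers, Col3a1, Dcn, Lum, Postn and S100a4 had no count in any of the 4 libraries. The summed level of the 7 tested ones, most of it Fn1, was 1871 and 1858 CPM in NrESC, against 2132 and 2157 CPM in ESC. Of the trophectoderm factors, Cdx2 stayed under 1 CPM in all 4 libraries and Elf5 had at most 5 counts.

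In edgeR's quasi-likelihood test 4120 of 15036 genes were higher in NrESC than in ESC at passage 4 (27.4%) and 4038 were lower (26.9%). Most differences were small: 358 genes were at least 2-fold higher and 601 at least 2-fold lower. The median SE of a log2 fold change was 0.0737. On the scale of TPM, which the authors had corrected for transcript length, limma called 2961 higher and 5269 lower, which changes both the scale and the test. The size factors of DESeq2 in the same edgeR model gave 3996 and 4149. The median of all genes was -0.05 with limma on log2(TPM + 1), against 0.01 for the TMM-scaled counts. A ranking took the called genes without overlap between the groups whose mean log2 CPM over the 4 libraries reached 1 or more. Its 12 highest fold changes were those of Abcg1, Abca1, Mylip, Mid1ip1, Scd1, Mef2b, Il4i1, Ubap1l, Srebf1, Krt8, Eppk1 and Slc2a4. The lowest included those of Zscan4b, Zscan4d, Zscan4c, Zscan4f, Tmem92, Zscan4a, Mgll, Pramel6, Usp17le, Fam124a and Usp17lb. Placeholder symbols were passed over in both rankings. Of the genes higher at passage 4, 68.1% were also higher at passage 2 and 62.8% at passage 6. Of those lower, 66.4% were also lower at passage 2 and 66.3% at passage 6. Over all 15036 genes, 3720 were higher and 3573 lower at passage 2, and 3547 and 3775 at passage 6. These passages share no library with passage 4 but belong to the same series.

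Sterol export genes led the ranking of higher fold changes given above. Abcg1, which moves sterols to lipoproteins, had 122 and 127 CPM in NrESC, against 8.13 and 8.01 CPM in ESC. Abca1, which loads cholesterol onto apolipoproteins, had 421 and 415 CPM in NrESC, against 48.9 and 50.1 CPM in ESC. The groups lay far apart for both genes, with log2 fold changes of 3.95 (SE 0.0587, edgeR quasi-likelihood adjusted p = 1.03e-39) for Abcg1 and 3.08 (SE 0.0334, edgeR quasi-likelihood adjusted p = 1.32e-44) for Abca1. Mylip, a ubiquitin ligase that limits cholesterol uptake, had 38.8 and 38.4 CPM in NrESC, against 7.09 and 6.15 CPM in ESC. Srebf1 had 307 and 322 CPM in NrESC, against 85.8 and 85.7 CPM in ESC. The log2 fold changes of Mylip and Srebf1 were 2.55 (SE 0.0788) and 1.88 (SE 0.0376). Lpcat3, which puts polyunsaturated fatty acids into phospholipids, and Arl4c, a small GTPase linked to cholesterol traffic, rose by 1.38 (SE 0.031) and 1.32 (SE 0.111).

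Of the 15 LXR targets tested 9 rose, against 27.4% of all genes, and 1 fell, against 26.9%, with a median log2 fold change of 0.44 against 0.01 for all genes. The secreted lipid carriers on the list rose less than the exporters: the phospholipid transfer protein Pltp by 0.44 (SE 0.0432), Apoc1 by 0.36 (SE 0.0629) and Apoe by 0.22 (SE 0.0293). The member that fell was Mlxipl, the glucose-sensing transcription factor ChREBP, with a log2 fold change of -0.24 (SE 0.0872, edgeR quasi-likelihood adjusted p = 0.0203). Lpl, Mertk, Smpdl3a, Abcg4 and Nr1h3 did not pass, with fold changes between -0.47 and 0.71 on the log2 scale, and Nr1h3 lay between 0.887 and 1.23 CPM in the 4 libraries. The intestinal and hepatic transporters Abcg5 and Abcg8 had at most 1 count in a library. Nr1h2 had 59.8 and 68.3 CPM in NrESC, against 56.6 and 55.6 CPM in ESC (log2 fold change 0.20, SE 0.0495, edgeR quasi-likelihood adjusted p = 0.000683). It did not pass with limma on log2(TPM + 1) (adjusted p = 0.0868). Among 11 receptors, partners and coregulators 3 rose, which is near the share of all genes, and 6 fell. The corepressor Ncor1 had 373 and 372 CPM in NrESC, against 437 and 434 CPM in ESC, and the partner Rxra 32.5 and 32.7 CPM in NrESC, against 39.3 and 37.6 CPM in ESC. With levels corrected for transcript length and GC content, none of the 11 LXR, RXR and coregulators genes rose and 5 fell. The bile acid receptor Nr1h4 and the xenobiotic receptor Nr1i2, which T0901317 is also known to bind, lay under 2 CPM, and of 11 tested genes of that axis 1 rose and 2 fell.

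The promoters of Abca1 and Srebf1 are shown because both genes rose and both windows hold the letters of an LXR element. The element (DR4) is a pair of AGGTCA half-sites with 4 bases between them, searched on both strands with at most 3 of 12 letters mismatched. Windows run from 250 bases before to 50 bases after a RefSeq start (GRCm38.p6), on the strand of the gene, and the match is in capitals.
Abca1: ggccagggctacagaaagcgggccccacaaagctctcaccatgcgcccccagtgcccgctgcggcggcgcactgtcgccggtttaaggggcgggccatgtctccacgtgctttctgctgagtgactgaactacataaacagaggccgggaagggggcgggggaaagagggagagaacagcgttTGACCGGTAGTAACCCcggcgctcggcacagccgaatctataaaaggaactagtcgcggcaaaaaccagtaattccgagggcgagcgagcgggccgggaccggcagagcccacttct
Srebf1: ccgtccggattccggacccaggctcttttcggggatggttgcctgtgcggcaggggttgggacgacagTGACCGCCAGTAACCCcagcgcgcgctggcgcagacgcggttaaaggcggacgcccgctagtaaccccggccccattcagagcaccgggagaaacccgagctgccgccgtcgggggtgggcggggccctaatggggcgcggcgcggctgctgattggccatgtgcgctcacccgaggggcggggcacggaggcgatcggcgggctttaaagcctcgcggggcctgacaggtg
The Abca1 window is chr4:53159846-53160145 on the minus strand, with the match from -67 to -52 counted from the start. That of Srebf1 is chr11:60210422-60210721 on the minus strand, with the match from -182 to -167. A second RefSeq start of Srebf1 has a window with no such match. Each match has 3 mismatches and lies on the strand opposite to the gene. Of the 10 LXR targets with a window 3 held such a match, the third being Arl4c. This is near the 21.5% of the 11722 tested genes with a window. With at most 2 mismatches 0 of the 10 held a match, against 2.66% of all tested genes with a window. A match of letters does not show binding, and these data hold no binding measurement.

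Fatty acid synthesis rose along most of its steps. Of 21 genes tested 14 rose and none fell, against 27.4% and 26.9% of all genes, with a median log2 fold change of 0.45. At the first steps, the citrate carrier Slc25a1 rose by 0.45 (SE 0.0348), the ATP citrate lyase Acly by 0.28 (SE 0.0213) and the acetyl-CoA carboxylase Acaca by 1.01 (SE 0.0282). Mid1ip1, which helps the carboxylase to form active filaments, had 62.1 and 62.6 CPM in NrESC, against 13.4 and 13.7 CPM in ESC. Fasn, the synthase, had 1350 and 1344 CPM in NrESC, against 717 and 734 CPM in ESC. The log2 fold changes of Mid1ip1 and Fasn were 2.20 (SE 0.0552) and 0.89 (SE 0.0233). The desaturases that follow rose further than the synthase. Scd1 had 1035 and 1016 CPM in NrESC, against 225 and 233 CPM in ESC, and Scd2 3458 and 3425 CPM in NrESC, against 1112 and 1126 CPM in ESC. Their log2 fold changes were 2.16 (SE 0.0251) and 1.62 (SE 0.0197). The desaturases of polyunsaturated fatty acids, Fads1 and Fads2, rose by 0.97 (SE 0.0392) and 1.06 (SE 0.0373). Not every step moved: Elovl6, which extends palmitate, had 321 and 305 CPM in NrESC, against 312 and 320 CPM in ESC, and the groups overlapped. Me1, Acacb, Gpam, Thrsp, Fads3 and Dgat2 did not pass either.

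Cholesterol synthesis rose at most of its steps. Of 8 genes of the mevalonate pathway 6 rose and none fell (median 0.43), and of 12 genes of the sterol branch 11 rose and none fell (median 0.52). Dhcr7, which completes cholesterol, had 155 and 154 CPM in NrESC, against 84.9 and 81.5 CPM in ESC (log2 fold change 0.89, SE 0.0311, edgeR quasi-likelihood adjusted p = 5.9e-26). Fdps, which makes farnesyl pyrophosphate, rose by 0.77 (SE 0.0324), and Lss, which closes the sterol rings, by 0.66 (SE 0.0331). Idi1, Ggps1 and Hsd17b7 did not pass. Among genes of SREBP control and sterol uptake 8 of 15 rose and 4 fell, against 27.4% and 26.9% of all genes. The 4 that fell were thus near the share of all genes. Srebf2 had 405 and 420 CPM in NrESC, against 277 and 271 CPM in ESC, and its anchor Insig1 124 and 130 CPM in NrESC, against 83.7 and 79.1 CPM in ESC. Both were separated between the groups, with log2 fold changes of 0.59 and 0.65. The genes of this list that fell moved less. They were the SREBP proteases Mbtps1 and Mbtps2, the lysosomal sterol exporter Npc1 and the sterol esterifying Soat1, falling by 0.07 to 0.32 on the log2 scale. Mbtps1 did not pass when only the 4 libraries of passage 4 were fitted (edgeR quasi-likelihood adjusted p = 0.0771). In the promoter windows, the 9-letter sterol regulatory element TCACNCCAC was in none of the 9 sterol branch genes with a window, and in 1.49% of all genes with one. The letters CCAAT were in all 9, against 42.8% of all genes. They were as common in lists that did not rise as a whole. Of mitosis genes with a window 14 of 15 held them. Of genes of endoplasmic reticulum chaperones and the unfolded protein response 17 of 19 did.

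**Figure D1:**
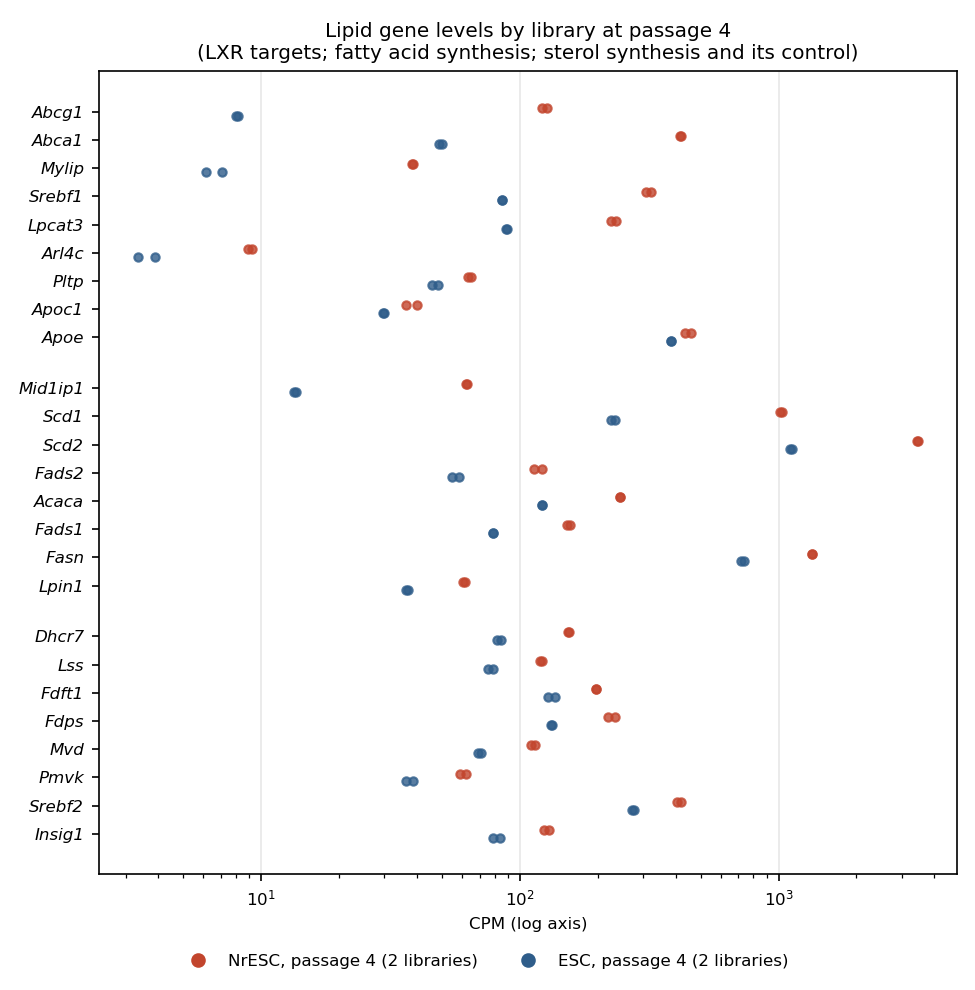
Each point is 1 library at passage 4, NrESC above ESC in each row, on a log axis in CPM, for LXR targets (top block), fatty acid synthesis (middle) and sterol synthesis and its control (bottom). The rows are chosen genes that were called higher in NrESC, and members of these lists that fell or did not pass are not drawn. Of the rows drawn the groups stand farthest apart for Abcg1 (122 and 127 CPM in NrESC, 8.13 and 8.01 CPM in ESC).

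Fat breakdown did not follow in 1 direction: of 16 genes of fatty acid oxidation and PPAR signalling 6 rose and 7 fell. Of all genes 27.4% rose and 26.9% fell. The mitochondrial importer Cpt1b had 11.8 and 10.6 CPM in NrESC, against 5.01 and 3.86 CPM in ESC, and the uncoupling protein Ucp2 215 and 212 CPM in NrESC, against 126 and 122 CPM in ESC. Cpt1a, the liver form of the same importer, had 143 and 144 CPM in NrESC, against 174 and 177 CPM in ESC. Mgll, which cleaves monoacylglycerol, was among the lowest of the ranking above. It had 1.11 and 1.14 CPM in NrESC, against 8.72 and 6.86 CPM in ESC (-2.78, SE 0.189). Slc2a4, the insulin-sensitive glucose carrier, was among the highest at low counts, with 4.13 and 3.54 CPM in NrESC, against 0.819 and 1.32 CPM in ESC (1.81, SE 0.211).

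Genes of the amino acid response rose too. ATF4 is the transcription factor made when the kinases of the integrated stress response slow translation, and with its partner CHOP (Ddit3) it switches on amino acid import and synthesis. Of 21 ATF4 and CHOP genes 18 rose and none fell, against 27.4% and 26.9% of all genes. Their median log2 fold change was 0.82. Atf4 had 450 and 476 CPM in NrESC, against 323 and 323 CPM in ESC, and Ddit3 22.0 and 22.2 CPM in NrESC, against 11.4 and 10.9 CPM in ESC. Chac1, which degrades glutathione, had 32.4 and 31.4 CPM in NrESC, against 10.2 and 11.5 CPM in ESC. Atf4, Ddit3 and Chac1 did not overlap between the groups (log2 fold changes 0.52, 0.99 and 1.55). The pseudokinase Trib3 rose by 1.20 (SE 0.0517) and the stress protein Nupr1 by 1.10 (SE 0.0528). Of the amino acid carriers, Slc7a5 had 783 and 779 CPM in NrESC, against 410 and 415 CPM in ESC, and its partner Slc3a2 504 and 522 CPM in NrESC, against 278 and 274 CPM in ESC. The cystine carrier Slc7a11 lay low in both, at 3.26 and 3.87 CPM in NrESC, against 0.913 and 1.00 CPM in ESC. The asparagine synthetase Asns rose by 0.54 (SE 0.0209). Ppp1r15a, Slc7a3 and Stc2 did not pass, among them the phosphatase subunit that ends the response (Ppp1r15a, 40.3 and 39.2 CPM in NrESC, against 38.2 and 41.8 CPM in ESC).

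Serine, glycine and proline synthesis, which ATF4 also drives, rose in 9 of 11 genes and fell in 1, with a median of 0.60. Phgdh, the first enzyme of serine synthesis, had 309 and 308 CPM in NrESC, against 124 and 122 CPM in ESC (log2 fold change 1.33, SE 0.0336, edgeR quasi-likelihood adjusted p = 5.87e-31). Psat1 and Psph, which complete serine, rose by 0.96 (SE 0.0233) and 1.01 (SE 0.0454), and the proline enzyme Pycr1 by 1.14 (SE 0.0417). The mitochondrial folate enzyme Mthfd2 rose by 0.60 (SE 0.0262), while its cytosolic counterpart Mthfd1 had 469 and 476 CPM in NrESC, against 470 and 478 CPM in ESC, and the cytosolic Shmt1 fell by 0.09 (SE 0.0298). The chaperones of the endoplasmic reticulum did not rise with these genes: 4 of 22 rose and 10 fell. Their median was -0.05, and over all genes 27.4% rose and 26.9% fell. Hspa5, the main such chaperone, had 723 and 727 CPM in NrESC, against 760 and 755 CPM in ESC. Herpud1, a member of the degradation machinery of this compartment, rose by 0.52 (SE 0.0636).

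Promoters of 3 genes of this group are shown with the letters of the C/EBP-ATF element (CARE), TGATGNAAN on either strand, in capitals.
Chac1: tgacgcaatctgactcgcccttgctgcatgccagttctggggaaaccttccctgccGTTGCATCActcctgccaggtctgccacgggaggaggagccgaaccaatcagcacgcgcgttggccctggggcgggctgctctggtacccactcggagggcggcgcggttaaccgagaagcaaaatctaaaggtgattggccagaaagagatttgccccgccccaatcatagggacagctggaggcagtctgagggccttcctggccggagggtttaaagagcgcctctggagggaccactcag
Trib3: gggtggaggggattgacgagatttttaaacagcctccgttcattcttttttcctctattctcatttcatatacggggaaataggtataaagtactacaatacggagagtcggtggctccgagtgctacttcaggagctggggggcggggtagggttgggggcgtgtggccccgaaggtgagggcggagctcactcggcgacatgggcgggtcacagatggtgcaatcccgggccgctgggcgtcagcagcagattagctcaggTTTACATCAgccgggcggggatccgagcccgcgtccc
Asns: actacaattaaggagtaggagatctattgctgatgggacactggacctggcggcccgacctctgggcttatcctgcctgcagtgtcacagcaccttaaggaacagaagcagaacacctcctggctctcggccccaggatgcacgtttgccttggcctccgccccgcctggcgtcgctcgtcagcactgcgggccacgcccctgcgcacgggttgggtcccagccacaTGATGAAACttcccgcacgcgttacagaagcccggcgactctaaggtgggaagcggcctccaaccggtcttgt
The windows, from the same RefSeq table (GRCm38.p6), are chr2:119350992-119351291 on the plus strand for Chac1, chr2:152344011-152344310 on the minus strand for Trib3 and chr6:7693160-7693459 on the minus strand for Asns. The matches lie from -194 to -186, from 13 to 21 and from -23 to -15. Of the 17 ATF4 and CHOP genes with a window 7 held the letters, the others being Atf3, Fgf21, Nupr1 and Slc7a11, against 2.74% of all tested genes with a window. The list is made of genes known for this factor, so its share of such letters is no independent result.

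Genes of the 2-cell-like state were far lower in NrESC. Zscan4c, a zinc finger protein of the 2-cell embryo that is tied to telomere upkeep, had 5.88 and 5.30 CPM in NrESC, against 41.9 and 43.4 CPM in ESC. Zscan4a had 6.19 and 5.83 CPM in NrESC, against 41.7 and 44.1 CPM in ESC. Tmem92, a membrane protein, had 1.87 and 2.01 CPM in NrESC, against 14.4 and 14.5 CPM in ESC. Their log2 fold changes were -2.94 (SE 0.0843), -2.84 (SE 0.0934) and -2.89 (SE 0.119). All 3 are from the ranking above, which took only genes without overlap between the groups. Of 23 genes of this state with enough counts 22 fell, against 26.9% of all genes, none rose, and the median was -2.84. The remaining one, Tdpoz4, was under 1 CPM in all 4 libraries. Dux, the factor that can start the state, had 0.0397 and 0.0836 CPM in NrESC, against 0.220 and 0.486 CPM in ESC, and Zfp352, a factor of the 2-cell embryo, 0.199 and 0.334 CPM in NrESC, against 1.92 and 1.52 CPM in ESC. The Usp17l deubiquitinases fell by 2.53 to 2.97 on the log2 scale. Summed over the list, the level was 36.8 and 36.0 CPM in NrESC, against 261 and 275 CPM in ESC. The NrESC libraries of passage 4 were within the range of the other 14 NrESC libraries (16.6 to 53.1 CPM), and the ESC libraries above each of the 14 other ESC libraries (33.5 to 254 CPM). In bulk RNA, fewer cells in a state and less RNA per cell cannot be told apart.

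The Zscan4 and Usp17l genes are families of similar copies. The counting program divides reads that fit several copies, so the value of each single copy is uncertain. How alike their transcripts are was not measured here. Windows of Zscan4c and Zscan4f are shown as an example of the likeness of 2 copies around their start, which does not show how reads were shared. The capitals mark a match to a DR1 element (a pair of AGGTCA half-sites with 1 base between them, 2 of 12 letters mismatched), the same letters in both.
Zscan4c: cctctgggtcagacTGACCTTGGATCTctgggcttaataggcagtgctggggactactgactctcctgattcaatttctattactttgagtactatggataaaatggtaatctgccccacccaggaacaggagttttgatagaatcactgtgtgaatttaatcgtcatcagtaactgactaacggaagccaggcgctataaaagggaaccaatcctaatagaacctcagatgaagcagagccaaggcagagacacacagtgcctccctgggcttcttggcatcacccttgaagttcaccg
Zscan4f: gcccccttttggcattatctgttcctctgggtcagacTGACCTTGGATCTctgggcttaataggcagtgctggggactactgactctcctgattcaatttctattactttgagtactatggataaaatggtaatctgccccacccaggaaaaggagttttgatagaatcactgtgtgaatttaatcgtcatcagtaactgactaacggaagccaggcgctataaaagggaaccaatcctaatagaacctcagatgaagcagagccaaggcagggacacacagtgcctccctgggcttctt
They are chr7:11005495-11005794 and chr7:11397665-11397964 in GRCm38.p6, both on the plus strand. With one moved by 23 bases, 275 of 277 aligned bases were identical, and among Zscan4b, Zscan4c, Zscan4d and Zscan4f the share of identical bases was 95.3% to 99.3%. A DR1 match with at most 3 mismatches stood in 24.3% of all tested genes with a window. No DR4 match was found in the 11 genes of the 2-cell-like list with a window.

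Regulators of the 2-cell-like state moved little by comparison. Of 26 tested 5 rose and 16 fell, against 27.4% and 26.9% of all genes, with a median of -0.12. Dppa2, an activator of Dux, had 60.5 and 60.0 CPM in NrESC, against 140 and 126 CPM in ESC (log2 fold change -1.14, SE 0.0418, edgeR quasi-likelihood adjusted p = 3.49e-25). Its partner Dppa4 had 75.1 and 75.5 CPM in NrESC, against 82.7 and 82.9 CPM in ESC (-0.14, SE 0.0355). Dppa2 was the only regulator of the 26 with a 2-fold or greater difference. Of the repressors of the state, the methyltransferase subunit Ehmt2 rose by 0.60 (SE 0.03), and Rif1, Mga, Max, Setdb1 and Zmym2 fell by 0.22 to 0.47. Pramel6 and Pramel7 were outside the 2-cell-like list and fell as well. Pramel7 is known in mouse embryonic stem cells for acting against DNA methylation. Pramel6 had 2.14 and 1.87 CPM in NrESC, against 12.3 and 13.5 CPM in ESC, and Pramel7 1.07 and 1.00 CPM in NrESC, against 5.39 and 5.32 CPM in ESC.

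Core and naive pluripotency genes differed by less than 2-fold throughout. Of 26 core and naive genes 7 rose and 17 fell, with a median of -0.16 and fold changes between -0.85 and 0.71. The 7 that rose were near the share of all genes (27.4%), while 26.9% of all genes fell. Nanog fell by 0.52 (SE 0.0206), Sox2 by 0.39 (SE 0.0268) and Zfp42 by 0.27 (SE 0.0226), while Pou5f1 rose by 0.30 (SE 0.0251) and Klf4 by 0.24 (SE 0.0299). Esrrb, an orphan nuclear receptor of the naive network, had 838 and 843 CPM in NrESC, against 853 and 874 CPM in ESC, and did not pass. Dppa5a rose by 0.61 and Socs3, a feedback inhibitor that LIF signalling induces, by 0.71, with 237 and 251 CPM in NrESC, against 150 and 148 CPM in ESC. The LIF receptor chains Lifr and Il6st and Stat3 fell by 0.11 to 0.27. Formative and primed genes fell in 8 of 14 and rose in 1, with a median of -0.42. At least 2-fold lower were 3 of the 14. Zic2, a factor of the formative state, had 12.8 and 13.1 CPM in NrESC, against 28.2 and 28.3 CPM in ESC, and Otx2 8.94 and 9.81 CPM in NrESC, against 8.16 and 8.38 CPM in ESC.

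Within the Nodal pathway the inhibitors Lefty1 and Lefty2 fell by more than 2-fold. Lefty2, a secreted inhibitor of Nodal, had 43.8 and 42.5 CPM in NrESC, against 184 and 189 CPM in ESC (log2 fold change -2.11, SE 0.0381, edgeR quasi-likelihood adjusted p = 1.96e-36). Its neighbour in function Lefty1 had 1.39 and 1.92 CPM in NrESC, against 8.22 and 8.49 CPM in ESC. Both were clearly separated, while Nodal itself fell by 0.28 (SE 0.0382) and its receptors Acvr1b and Acvr2b rose by 0.15 and 0.09, neither of which passed with limma on log2(TPM + 1). In all 3 of 15 pathway genes rose and 8 fell. Targets of beta-catenin, which CHIR99021 stabilises in both cultures, rose in 4 of 15 and fell in 5, near the shares of all genes (27.4% and 26.9%). Axin2, the standard readout, had 44.6 and 43.2 CPM in NrESC, against 48.9 and 43.8 CPM in ESC, and did not pass. The repressor Tcf7l1 fell by 0.60 (SE 0.0414) and Notum by 0.99 (SE 0.0797). Of 21 genes of ERK feedback and the immediate early response, which the MEK inhibitor holds down in both cultures, 6 rose and 9 fell. The 6 that rose were near the share of all genes. Dusp6 rose by 0.46 (SE 0.102), and Myc fell by 0.66 (SE 0.0922) and Egr1 by 1.19 (SE 0.319), the last at or under 1.26 CPM.

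Markers of other lineages stayed low or mixed. Krt8 and Krt18, the keratin pair of simple epithelia and of trophectoderm, rose: Krt8 had 97.8 and 103 CPM in NrESC, against 29.4 and 25.97 CPM in ESC, and Krt18 14.9 and 15.6 CPM in NrESC, against 6.58 and 6.38 CPM in ESC. The transcription factors of trophectoderm did not rise with them. Cdx2 had 0.437 and 0.279 CPM in NrESC, against 0.787 and 0.772 CPM in ESC, Gata3 0.516 and 0.307 CPM in NrESC, against 1.01 and 1.09 CPM in ESC, and Eomes 20.6 and 22.2 CPM in NrESC, against 26.3 and 26.1 CPM in ESC. Cdx2, Gata3 and Eomes passed as lower, and over the list 4 of 17 rose and 7 fell. Of all genes 27.4% rose and 26.9% fell. Of 16 primitive endoderm genes 2 rose and 6 fell, and Gata6, Sox7 and Sox17 lay near or under 1 CPM and did not pass. The basement membrane chains Col4a1 and Col4a2 fell by 0.93 (SE 0.0542) and 0.55 (SE 0.0654). Of 9 mesoderm, endoderm and neuroectoderm genes 1 rose (Sox1, by 0.56) and 5 fell, among them the intermediate filament gene Nes and the tubulin Tubb3, by 0.74 and 0.59. The retinoic acid axis rose in 2 of 14 genes and fell in 4, the fall being near the share of all genes. Stra8, a retinoic acid target of germ cells, had 11.4 and 13.1 CPM in NrESC, against 21.9 and 20.4 CPM in ESC.

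Genes tied to DNA methylation moved in both directions. Of 11 genes of the methylation machinery 1 rose (Dnmt3l, by 0.37) and 4 fell (Dnmt1, Tet1, Tet2 and Mbd1, the farthest being Tet2 by 0.43). Of 23 germline genes silenced by methylation in other tissues 4 rose and 9 fell: the RNA-binding Dazl had 15.3 and 14.4 CPM in NrESC, against 25.5 and 29.8 CPM in ESC, and the helicase Mov10l1 12.0 and 12.6 CPM in NrESC, against 6.99 and 8.18 CPM in ESC. Of 29 imprinted genes 12 rose and 11 fell. Of all genes 27.4% rose and 26.9% fell. H19, a maternally expressed RNA, had 2.46 and 2.76 CPM in NrESC, against 11.4 and 10.3 CPM in ESC, while Meg3, a maternally expressed RNA of another cluster, had 97.5 and 102 CPM in NrESC, against 62.9 and 54.9 CPM in ESC. Impact and Zdbf2, both paternally expressed, fell by 0.92 (SE 0.0338) and 0.69 (SE 0.0345). The median of the imprinted list lay at -0.01 and changed sign under 2 of the other settings.

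Glycolysis and the hypoxia response were lower. Of 20 genes of glucose uptake and glycolysis 4 rose and 14 fell, against 27.4% and 26.9% of all genes. Their median was -0.15. Pfkfb3, which makes the activator of phosphofructokinase, had 11.2 and 10.0 CPM in NrESC, against 29.4 and 29.4 CPM in ESC, and the lactate exporter Slc16a3 94.7 and 102 CPM in NrESC, against 165 and 163 CPM in ESC. Both were separated, with log2 fold changes of -1.48 (SE 0.0823) and -0.73 (SE 0.0342). The enzymes Pgk1, Ldha and Gpi1 fell by 0.46, 0.40 and 0.32, and Gapdh by 0.07. The 4 that rose were Slc2a4, Txnip, which limits glucose uptake, Hk1 and Pfkm. Of 15 hypoxia genes, targets of the factor HIF, 3 rose and 12 fell, with a median of -0.59. Bnip3, a mitophagy receptor, had 31.4 and 34.6 CPM in NrESC, against 75.2 and 75.6 CPM in ESC (log2 fold change -1.18, SE 0.0434, edgeR quasi-likelihood adjusted p = 3.63e-25). Vegfa, Car9 and Mxi1 rose, Vegfa by 0.16 (SE 0.0391). Vegfa and Mxi1 did not pass with limma on log2(TPM + 1) (adjusted p = 0.0728 and 0.396), nor Mxi1 with DESeq2 (adjusted p = 0.0555).

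Targets of p53 fell in 14 of 20 and rose in 3. Pmaip1, which promotes apoptosis, had 12.1 and 13.1 CPM in NrESC, against 35.5 and 35.7 CPM in ESC, and Ccng1 268 and 271 CPM in NrESC, against 350 and 355 CPM in ESC. Cdkn1a, Bbc3 and Gdf15 rose, by 0.33, 0.79 and 1.08. Antioxidant genes of the factor NRF2 rose in 11 of 15 and fell in 1 (Hmox1, by 0.16), with a median of 0.23. Nqo1 had 97.5 and 97.4 CPM in NrESC, against 66.4 and 64.7 CPM in ESC, and the haem carrier Slc48a1 36.5 and 33.1 CPM in NrESC, against 19.5 and 19.2 CPM in ESC. Of 15 interferon response genes 8 rose and 3 fell: the antiviral Bst2 had 48.4 and 52.8 CPM in NrESC, against 17.8 and 17.9 CPM in ESC, and the class I antigen gene H2-K1 59.7 and 60.8 CPM in NrESC, against 27.4 and 25.5 CPM in ESC. Isg15, Ifit1 and Irf7 had too few counts to test. Lysosome genes rose in 9 of 21 and fell in 4, and in 6 each once lysosome levels were corrected for transcript length and GC content. Of 25 DNA replication genes 6 rose and 13 fell, and of 18 mitosis genes 6 rose and 8 fell, all by less than 0.30 on the log2 scale. Of all genes 27.4% rose and 26.9% fell.

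**Figure D2:**
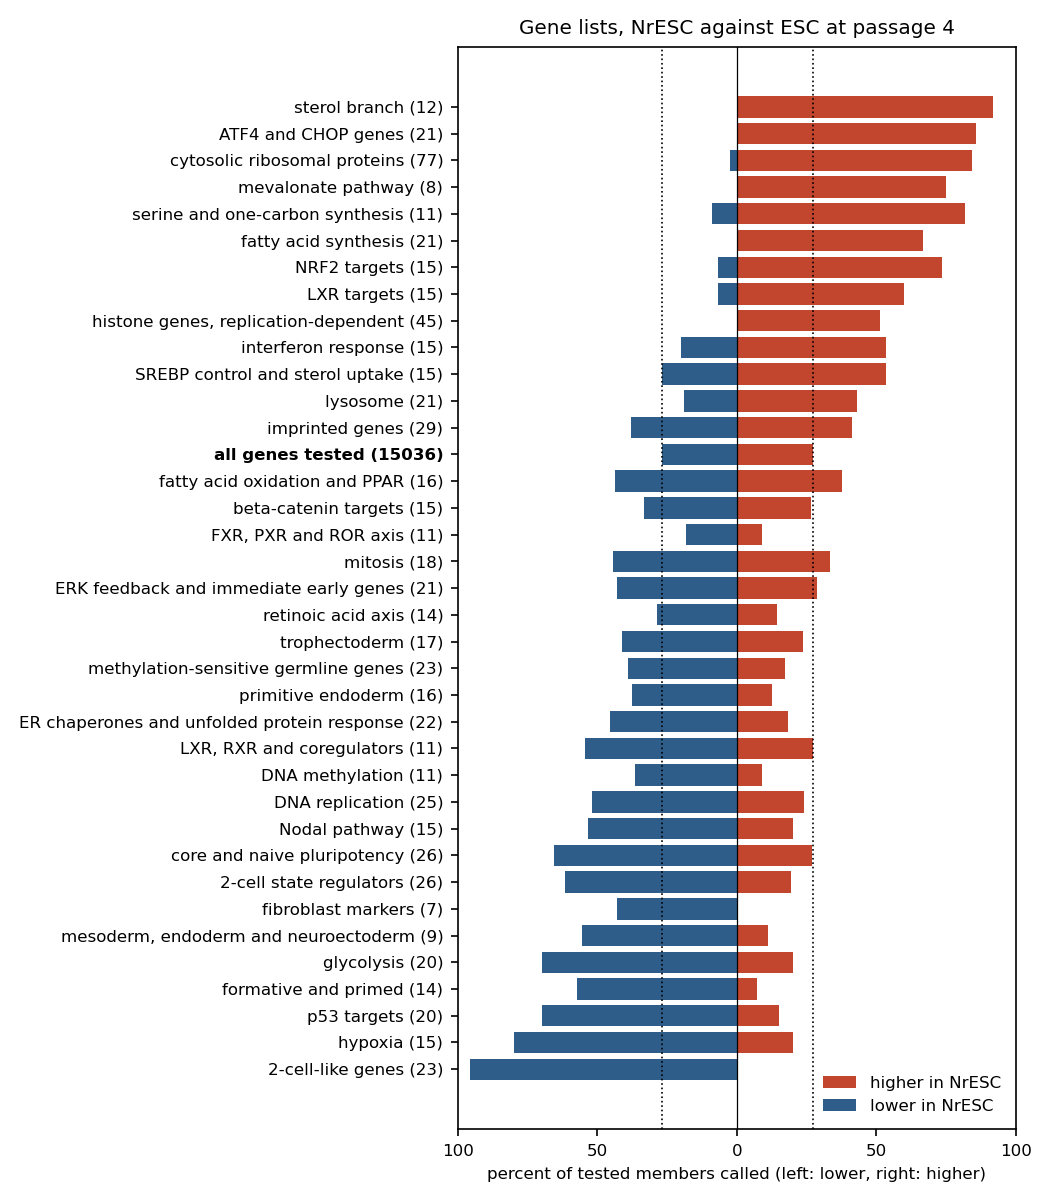
For each gene list with at least 5 tested members (their number in brackets) the bar to the right is the percent of members higher in NrESC and the bar to the left the percent lower, at passage 4 in edgeR's quasi-likelihood test. Dotted lines mark all genes tested (27.4% higher, 26.9% lower), and of the lists drawn that of 2-cell-like genes reaches farthest to the left with 22 of 23 lower.

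Histone and ribosomal protein transcripts also differed. Replication-dependent histone transcripts mostly lack a poly(A) tail, so in polyadenylated RNA they are a small remainder. Summed over all 69 such genes with an entry they reached 66.0 and 72.0 CPM in NrESC, against 33.9 and 33.1 CPM in ESC. The NrESC libraries of passage 4 lay above all 14 other NrESC libraries (24.7 to 46.8 CPM), and the ESC libraries above all 14 other ESC libraries (20.8 to 31.1 CPM). Of the 45 genes with enough counts to test 23 rose and none fell, against 27.4% and 26.9% of all genes. Their median was 0.94. The linker histones Hist1h1b and Hist1h1c rose by 1.57 (SE 0.196) and 1.00 (SE 0.145). Hist1h1e, Hist1h2al, Hist1h2bb, Hist1h3i, Hist1h4h and Hist1h4k did not pass with the DESeq2 Wald test (adjusted p from 0.0564 to 0.132). Of 77 cytosolic ribosomal proteins 65 rose and 2 fell, with a median of only 0.17. Rps14 had 1076 and 1127 CPM in NrESC, against 826 and 775 CPM in ESC. Their share of all counts was 7.34% and 7.71% in NrESC, against 6.78% and 6.63% in ESC.

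Fold changes followed transcript length and base composition. Genes were put into 5 bins of equal size. From the bin of the shortest to that of the longest transcripts the median log2 fold change was 0.12, 0.05, 0.01, -0.03 and -0.11, and from the bin of lowest to that of highest GC content it was -0.12, -0.06, -0.01, 0.09 and 0.19. Length and GC values were at hand for 99.3% of tested genes. Of the 77 ribosomal protein genes 61, and of the 45 histone genes 39, were in the bin of shortest transcripts. Relative to genes of the same length and GC content the medians were 0.10 for ribosomal proteins, 0.84 for histones, -2.84 for 2-cell-like genes, -0.61 for hypoxia, 0.70 for ATF4 and CHOP genes and 0.57 for the sterol branch. With this correction built into the model, edgeR called 3698 genes higher and 4033 lower, and 44 of the cytosolic ribosomal proteins rose and 9 fell. On the TPM scale limma called 35 of the cytosolic ribosomal proteins higher and 6 lower. The part of the histone share in the other differences was not tested.

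**Figure D3:**
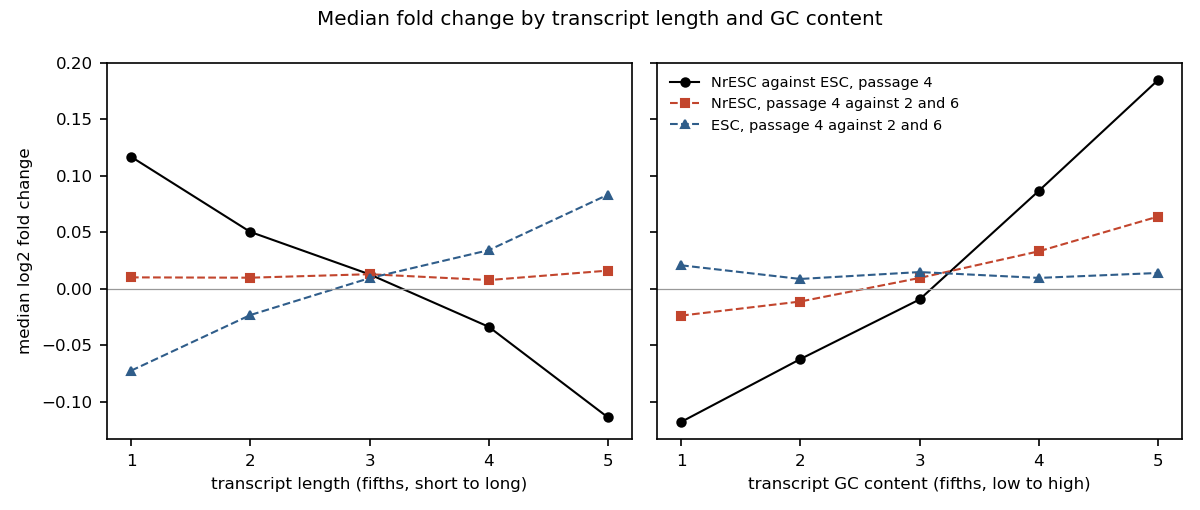
Median log2 fold change (vertical axis) over 5 equal bins of genes by transcript length (left) and GC content (right), for NrESC against ESC at passage 4 and for each culture at passage 4 against its own passages 2 and 6. The black line falls with length (0.12 to -0.11) and rises with GC content (-0.12 to 0.19), and with length the line of the ESC culture runs the other way (-0.07 to 0.08).

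The next question was where the difference at passage 4 departs from that at the neighbouring passages 2 and 6, which share no library with it. The passage 4 difference was higher than the mean of theirs for 1064 genes (7.08%) and lower for 998 (6.64%) in edgeR's quasi-likelihood test. Without the second NrESC library of passage 4 these counts were 561 and 553. Within each culture, passage 4 was compared with its own passages 2 and 6. NrESC had 2031 genes higher (13.5%) and 1959 lower (13%), and ESC had 2856 higher (19%) and 2882 lower (19.2%). Without the second NrESC library of passage 4 the NrESC counts were 1122 and 1269. Of the 1064 genes whose difference was higher, 330 had risen in NrESC, 782 had fallen in ESC, 86 had done both and 38 neither. Of the 998 whose difference was lower, 355 had fallen in NrESC, 680 had risen in ESC, 69 had done both and 32 neither. These counts rest on the same libraries as the difference itself and describe it.

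Fatty acid synthesis had a median near those of passages 2 and 6, while sterol genes were far above passage 2. Over the sterol branch the median difference was 0.17, 0.52 and 0.64 at passages 2, 4 and 6, over the mevalonate pathway 0.17, 0.43 and 0.48, and over fatty acid synthesis 0.45, 0.45 and 0.44. Abca1 departed by -0.04 on the log2 scale and did not pass, Scd1 by 0.02 and Scd2 by less than 0.01. Abcg1 departed by -0.34 (SE 0.0925): it averaged 117, 125 and 101 CPM in NrESC at passages 2, 4 and 6, against 4.59, 8.07 and 6.54 CPM in ESC. Srebf1 departed by 0.28, with 310.5, 315 and 246 CPM in NrESC at these passages, against 103, 85.7 and 80.4 CPM in ESC. Of the 15 LXR targets 3 had a higher difference and 3 a lower one, and of 21 fatty acid synthesis genes 3 had a higher one and none a lower one, against 7.08% and 6.64% of all genes. In the sterol branch 7 of 12 had a higher difference and none a lower one, with a median of 0.13. In NrESC 3 of the 12 rose and 3 fell, against 13.5% and 13% of all genes. In ESC none rose and 7 fell, against 19% and 19.2% of all genes.

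The 2-cell-like genes departed through the untreated culture. The difference was lower for 11 of 23 and higher for none, against 6.64% and 7.08% of all genes. In NrESC none of 23 rose and 1 fell, against 13.5% and 13% of all genes. In ESC 16 rose and none fell, against 19% and 19.2% of all genes. Zscan4c averaged 4.84, 5.59 and 7.31 CPM in NrESC at passages 2, 4 and 6, against 16.6, 42.7 and 35.1 CPM in ESC. Tmem92 averaged 1.32, 1.94 and 2.24 CPM in NrESC at these passages, against 4.71, 14.5 and 11.6 CPM in ESC. Of these passages, NrESC was highest at passage 6 for both genes and ESC at passage 4. The medians over the list were 0.07 for NrESC and 0.82 for ESC.

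Against the mean of passages 2 and 6 the difference was lower for 14 of 20 glycolysis genes and 10 of 15 hypoxia genes. It was higher for none of them, and over all genes it was lower for 6.64% and higher for 7.08%. In NrESC 14 of 20 glycolysis genes rose at passage 4 with a median of 0.11, and in ESC 19 of 20 rose with a median of 0.33. For hypoxia 8 of 15 rose in NrESC (median 0.26) and 10 of 15 in ESC (median 0.65). Over all genes 13.5% rose in NrESC and 19% in ESC. Bnip3 averaged 35.0, 33.0 and 21.5 CPM in NrESC at passages 2, 4 and 6, against 71.9, 75.4 and 29.2 CPM in ESC, and Slc16a3 90.2, 98.4 and 86.8 CPM in NrESC, against 155, 164 and 78.6 CPM in ESC. The ESC level of both was similar at passages 2 and 4 and lower at passage 6. The median difference between the cultures for hypoxia genes was -0.48 at passage 2, -0.59 at passage 4 and 0.00 at passage 6. For glycolysis it was -0.18 at passage 2, -0.15 at passage 4 and 0.15 at passage 6, so passage 4 was no lower than passage 2.

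Of 45 histone genes 4 had a higher difference at passage 4 and none a lower one, which is near the 7.08% of all genes, while the median departure was 0.54. Within the cultures 28 of the 45 rose in NrESC at passage 4 and none fell (median 0.96). In ESC 5 rose and none fell (median 0.40). Of all genes 13.5% rose and 13% fell in NrESC, and 19% rose and 19.2% fell in ESC. Of 77 ribosomal protein genes 8 rose and 3 fell in NrESC (median 0.02), while in ESC none rose and 73 fell (median -0.15). The difference was higher at passage 4 for 55 of the 77 and lower for none. Along with these, the bin of longest transcripts had a median change of 0.02 in NrESC and 0.08 in ESC, and the bin of shortest transcripts 0.01 in NrESC and -0.07 in ESC. With the length and GC correction in the model edgeR called 821 departures higher and 755 lower, among them 33 of the 77 cytosolic ribosomal proteins as higher and none as lower. Relative to genes of the same length and GC content their median departure was 0.09, against 0.16 without.

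Single genes departed by more than the medians of these lists. Of the 8 genes whose difference was highest, Fgfbp1, which releases fibroblast growth factors from the matrix, averaged 9.68, 4.46 and 3.36 CPM in NrESC at passages 2, 4 and 6, against 5.76, 1.33 and 2.46 CPM in ESC. Cited4, a transcriptional coactivator, averaged 8.15, 10.4 and 5.43 CPM in NrESC, against 3.44, 2.98 and 5.02 CPM in ESC. Fgfbp1 and Cited4 departed by 1.16 (SE 0.205) and 1.13 (SE 0.185). Among named genes outside these 8, the keratin Krt8 averaged 97.4, 100.3 and 64.4 CPM in NrESC, against 44.5, 27.7 and 32.8 CPM in ESC, a departure of 0.82 (SE 0.0594, edgeR quasi-likelihood adjusted p = 1.5e-13). Of the 8 whose difference was lowest, Ccng2, a cyclin tied to growth arrest, averaged 14.4, 14.9 and 10.1 CPM in NrESC, against 12.4, 24.9 and 5.25 CPM in ESC, a departure of -1.32 (SE 0.0957, edgeR quasi-likelihood adjusted p = 1.5e-13). Igfbp4, which binds insulin-like growth factors, averaged 5.30, 3.83 and 1.93 CPM in NrESC, against 6.71, 10.6 and 2.23 CPM in ESC. Ier3, an early response gene, averaged 6.44, 7.88 and 5.55 CPM in NrESC, against 6.29, 14.4 and 4.66 CPM in ESC. For Ccng2, Igfbp4 and Ier3 the ESC level was highest at passage 4 of these 3 passages, as it was for Ppp1r3c, Grm4, S100a13, Zscan4b and Zscan4d.

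**Figure D4:**
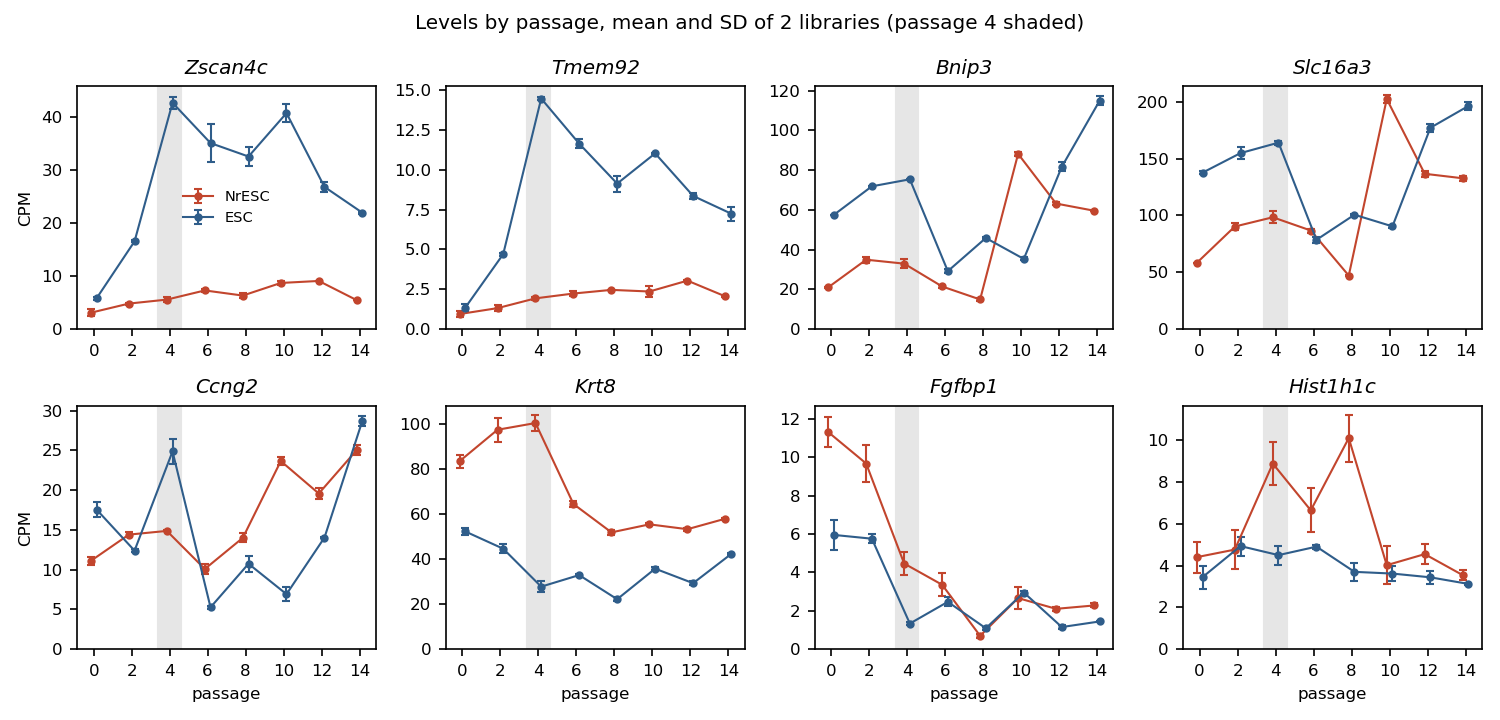
Mean CPM (vertical axes, linear) of 8 genes over passages 0 to 14, with bars for the SD of 2 libraries, NrESC and ESC in separate colours and passage 4 shaded. Zscan4c and Tmem92 peak in ESC at passage 4 (42.7 and 14.5 CPM) with NrESC low throughout, and Bnip3 and Slc16a3 are lower in NrESC at passage 4 and higher in NrESC at passage 10.

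**Figure D5:**
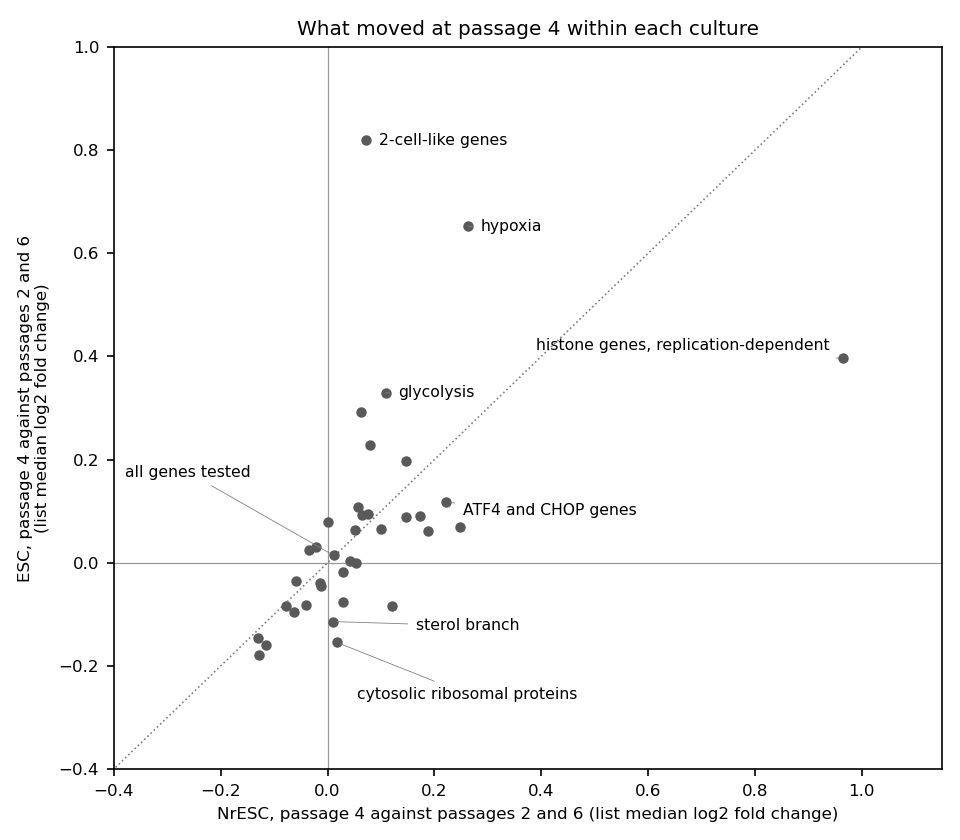
Each point is a gene list, placed by its median log2 change at passage 4 against passages 2 and 6 in NrESC (horizontal axis) and in ESC (vertical axis), and the dotted line marks equal change. The list of 2-cell-like genes (0.07 in NrESC, 0.82 in ESC) lies far above the line and histone genes (0.96 in NrESC, 0.40 in ESC) far below it.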

How the data were processed

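Polyadenylated RNA of 32 libraries was sequenced after NEBNext Ultra library preparation, per the labels' protocols. The authors deposited 1 table of RSEM expected counts per gene symbol (24890 symbols) and 1 table of TPM, in which counts are divided by transcript length and scaled within each library. The submitters' processing notes name STAR, RSEM, HTSeq 0.12.4, Cufflinks 2.2.1, DESeq2, edgeR and the build mm9, with no roles, and the annotation and strand setting are not given in the sources used here.

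The expected counts, as deposited, were rounded to whole numbers. Genes with low counts were removed with filterByExpr, and the quasi-likelihood model of edgeR 4.0.16 (R 4.3.3) with TMM scaling was fitted to all 16 groups (16 residual degrees of freedom), so the spread comes from all libraries. The contrasts were NrESC against ESC at passage 4, that difference minus the mean of those at passages 2 and 6, and passage 4 against passages 2 and 6 within each culture. SEs were derived from the F statistic. The code was tested on simulated data.

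Genes were named by a rule: the 12 highest and 12 lowest fold changes at passage 4 among called genes with no overlap and with log2 CPM averaging 1 or more, the 8 highest and 8 lowest departures from passages 2 and 6, and the 3 smallest p-values of each of 37 gene lists. Other list members are named for their role. Some genes that the rule or the lists hold are not reported here. The libraries, lists and rules were chosen with earlier results of these data known. Gene lengths, GC content and RefSeq promoters came from GRCm38 by symbol, which is not the build of the files. Of 15036 tested genes 11722 had a promoter window.

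Alternatives were other scalings and filters, DESeq2 1.42.0, limma 3.58.1 on log2(TPM + 1) and log2(TPM + 0.1), a replicate block, leaving out each library, other comparison passages, passage as the unit and a length and GC correction. The last and a crossed pairing were added after seeing the data. Same-numbered libraries of passage 4 deviated with a correlation of -0.146, so the numbers were not taken to pair them.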

Additional observations from a re-analysis of the deposited data

Results flagged for a closer look

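For 16 genes the difference between NrESC and ESC at passage 4 departed from the mean of the differences at passages 2 and 6, and that departure was itself tested (edgeR quasi-likelihood test with Benjamini-Hochberg adjustment). These are the 8 highest and the 8 lowest departures, in log2 units. The difference was higher at passage 4 for Fgfbp1 (1.155), Cited4 (1.129), Anxa3 (1.028), Plet1 (0.969), Lama4 (0.9511), Enox1 (0.9266), Dab2 (0.886) and Gpx2 (0.8524).

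At passage 4 itself Lama4 did not differ between the cultures by the test (0.23). Lama4, a laminin chain, averaged 3.85, 6.09 and 3.29 CPM in NrESC at passages 2, 4 and 6, against 5.85, 5.18 and 5.93 CPM in ESC. Dab2, an endocytic adaptor, averaged 5.97, 7.62 and 5.07 CPM in NrESC, against 6.31, 6.06 and 10.4 CPM in ESC. Enox1 was lower in NrESC at all 3 passages, with 5.93, 3.78 and 5.48 CPM in NrESC, against 20.4, 6.11 and 14.6 CPM in ESC. Gpx2, a glutathione peroxidase, averaged 14.2, 10.1 and 6.05 CPM in NrESC, against 7.0, 3.16 and 3.86 CPM in ESC.

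The difference was lower at passage 4 for Ccng2 (-1.32), Zscan4b (-1.264), S100a13 (-1.195), Igfbp4 (-1.195), Zscan4d (-1.044), Ppp1r3c (-1.039), Ier3 (-1.004) and Grm4 (-0.9783). S100a13 averaged 2.67, 2.93 and 4.16 CPM in NrESC, against 6.79, 15.8 and 9.10 CPM in ESC. Ppp1r3c, which directs glycogen synthesis, averaged 2.56, 2.51 and 1.43 CPM in NrESC, against 2.58, 4.94 and 1.28 CPM in ESC. Grm4 did not pass without the second NrESC library of passage 4, and Cited4, Dab2 and Grm4 did not pass against passage 2 alone.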

How the results depend on the processing

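At passage 4 itself, higher and lower calls stayed within 1.5 times of 4120 and 4038 under every alternative run, and the 24 genes of highest and lowest fold change kept direction and call. DESeq2 gave 3566 and 3722. With limma on log2(TPM + 1) the calls were 2961 and 5269, so 36% of called genes were higher, against 50.5% in the edgeR fit, and on log2(TPM + 0.1) 35.5%. The replicate block gave 4098 and 4012 over all libraries, and 3767 and 3657 over the 4 libraries of passage 4. The crossed pairing of these 4, as a replicate block, gave 4155 and 4059. Leaving out 1 library at a time gave 3321 to 3772 higher and 3312 to 3606 lower.

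The departure from passages 2 and 6 moved more around its 1064 higher and 998 lower calls. Leaving out 1 library gave 561 to 1100 higher and 553 to 1117 lower, the lowest without the second NrESC library of passage 4. Against the mean of the 7 other passages there were 2002 and 1747. With passage as the unit limma gave 0 and 0, with 609 genes at an unadjusted p under 0.05. That fit sets the single difference of passage 4 against those of the 7 other passages, so contrast and error both change. Its error is the spread between passages, whereas the 1064 and 998 calls rest on the spread between libraries. Those calls therefore do not show departures beyond the spread between passages. For NrESC against its own passages, leaving out 1 library gave 1122 to 1933 higher and 1269 to 1905 lower, and for ESC 1971 to 2627 higher and 2090 to 2715 lower. The causes were not tested. Values under 1 CPM rest on few counts.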
